A study of Mus musculus with 4 samples.

Results

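Mammary fibroblasts from mice with the *ErbB2* oncogene in their epithelium were compared with normal mammary fibroblasts, with *Ets2* present in both. The comparison uses 2 of the 4 arrays of the experiment, 1 from *ErbB2;Ets2db/loxP* mice and 1 from *Ets2db/loxP* mice. It covers the 34958 of 45101 probe sets that carry exactly 1 gene symbol, which stand for 18194 genes. All mice were on the FVB/N strain and 16 weeks of age, and those with the oncogene were taken before tumors could be felt. All of them carried *Ets2db*, a conventional knockout allele of the DNA-binding domain, beside a conditional *loxP* allele, so the fibroblasts called *Ets2* present kept 1 functional copy. In the other 2 arrays the conditional allele was deleted by Cre under the fibroblast *Fsp* promoter, in *ErbB2;Fsp-cre;Ets2db/loxP* mice with the oncogene and in *FspCre;Ets2db/loxP* mice without. These *Ets2* null arrays are used to set the same difference beside a pair of its own. Whether RNA of several animals was pooled is not stated in the labels or methods.

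The oncogene in this model is driven by the MMTV promoter, which is active in the mammary epithelium, so the oncogene was aimed at epithelial cells and not at the fibroblasts that were read. Stromal fibroblasts make the collagen-rich matrix of the gland, the proteases that remodel it, and growth factors and cytokines read by epithelial, endothelial and immune cells. Fibroblasts near a growing mammary lesion are known to change matrix and cytokine expression, and *Ets2*, a transcription factor activated by Ras and ERK signaling, is one of the factors studied in them. The comparison asks what differs in the fibroblasts of glands with an *ErbB2* epithelium while *Ets2* is present. The cells were freed from the gland with collagenase and hyaluronidase, separated from epithelial organoids by gravity and grown to the second passage, so they are not the stroma as it lay in the gland.

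Values are log2 expression levels made by RMA, which corrects the background, gives the arrays nearly the same distribution and summarises the probes of a probe set. A difference is the log2 value in *ErbB2* fibroblasts minus that in normal fibroblasts, and a difference of 1 is 2-fold and of 2 is 4-fold. Each gene is read on its brightest probe set, the one with the highest mean over the 4 arrays. Since each genotype had 1 array, no spread between replicates could be measured and no test was run, and the genotype, the animals, the culture and the array cannot be told apart. A log2 value under 6 was taken as not shown to rise over background, so the fold of a single gene is given only where both values are at or above it. In bulk RNA, fewer cells of a type and less RNA per cell cannot be told apart. Where 4 values are given, they stand in the order normal and *ErbB2* with *Ets2*, then normal and *ErbB2* without *Ets2*.

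The arrays were close to each other as a whole, with medians of 5.51 to 5.55 and a Pearson's r over all probe sets of 0.988 to 0.993 between any pair of arrays, the highest being that of the compared pair. The cells carried the fibroblast label's markers. *Col1a1* and *Col1a2*, chains of type I collagen, were at 13.71 and 13.76 and at 14.52 and 14.55 in normal and *ErbB2* fibroblasts. *Vim*, the filament protein of mesenchymal cells, was at 14.05 and 13.97, and *Thy1*, a fibroblast surface protein, at 10.29 and 10.63. The PDGF receptors *Pdgfra* and *Pdgfrb*, at 10.36 and 9.87 and at 11.67 and 11.28, were a little lower in *ErbB2* fibroblasts. Of 28 fibroblast markers, 26 were at log2 6 or more on both arrays, and their median difference was 0.08. Markers of other cells were also read: 38 of 45 macrophage and myeloid markers were at log2 6 or more in normal and 42 in *ErbB2* fibroblasts, against 8 and 13 of 32 luminal and 9 and 12 of 22 basal epithelial markers. *Ets2* had log2 values of 8.14, 8.34, 8.35 and 8.31, and where its probe sets lie relative to the deleted part is stated in no source used here, so these values check no label. *Erbb2*, the receptor gene itself, was at 7.17, 7.28, 7.15 and 7.14 in these fibroblasts.

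Most of the genes that differed strongly were higher in *ErbB2* fibroblasts. More than 4-fold higher were 20 genes, which is 0.11% of all genes, and more than 4-fold lower were 2 genes, 0.011%. At 2-fold the counts were 151 higher, 0.83%, and 31 lower, 0.17%. Counts past 2-fold in the gene lists below stand against these shares. The genes past 4-fold were led by the secreted proteins *Lcn2*, *Tslp* and *Wfdc18*, the keratins *Krt18*, *Krt14* and *Krt8* and the matrix metalloproteinases *Mmp13* and *Mmp3*, while *Dkk2* and *Olr1* were the genes past 4-fold on the lower side. After RMA the arrays as wholes were level: the median difference over all genes was -0.02, 46.4% of genes lay above 0, and the robust SD of the differences was 0.214. Of the 151 genes, 95 were at log2 6 or more on both arrays, 44 were below it in normal fibroblasts alone and 12 lay below it on both. Of the 31 lower genes, 19 were read above it on both arrays, 7 were below it in *ErbB2* fibroblasts alone and 5 lay below it on both. Several probe sets read 66 of the 151 genes, and in 54 of these all probe sets had the same sign. Among genes described further on, *Cp*, *Ptprc*, *Col5a3*, *Ptger3* and *Plxnc1* had a lowest difference of -0.02, -0.09, -0.07, -0.05 and -0.03. On its brightest probe set each differed by more than 1. *Fgf13*, *Dsp* and *Spon1* had a lowest difference of 0.47, 0.04 and 0.03. All of these lowest probe sets were below log2 6 on both arrays. They were thus not shown to rise over background, nor were the brightest of *Ptger3* and *Dsp*. A further probe set of *Spon1* was read on both arrays, at 6.94 and 7.41, and differed by 0.47. Genes on the marker lists of other cell types make up 38 of the 151 genes and none of the 31. Of the 38, 21 are macrophage and myeloid, 9 luminal and 4 basal epithelial markers, from lists that hold 45, 32 and 22 of the 18194 genes. The share of all genes on any such list was not counted. The part of these markers in the result was not tested.

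**Figure D1:**
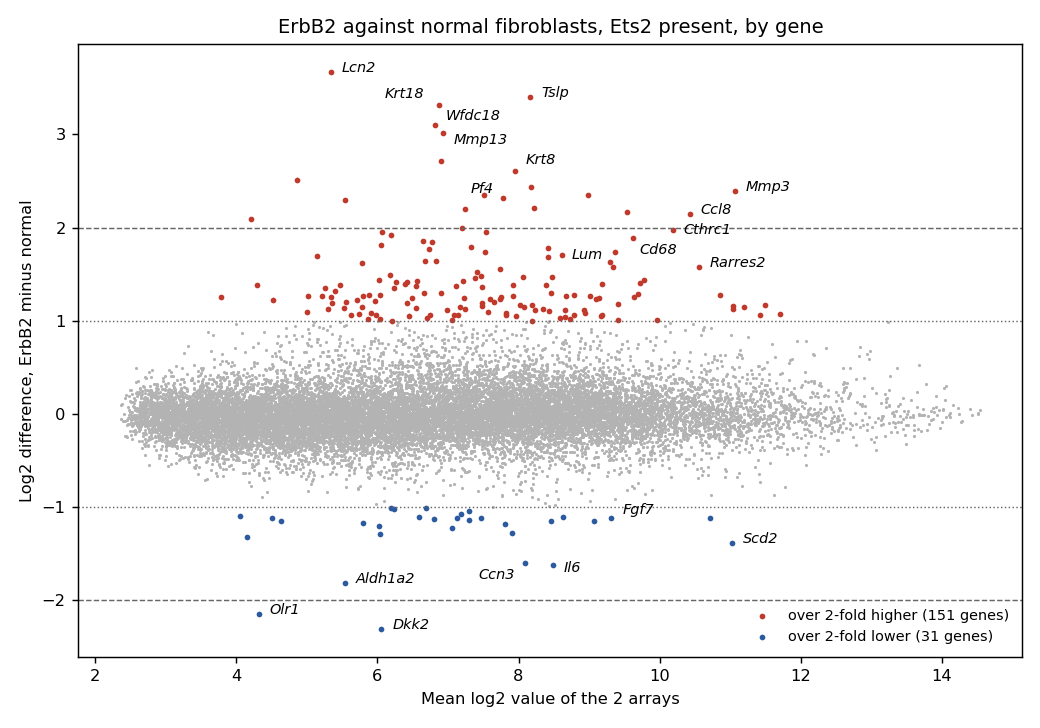
Log2 difference between *ErbB2* and normal fibroblasts with *Ets2* present (y axis) against the mean log2 value of the 2 arrays (x axis), 1 point per gene, with genes past 2-fold in red and blue, dotted lines at 2-fold and dashed lines at 4-fold. The 151 red points reach 3.67 for *Lcn2*, and the 31 blue points reach -2.31 for *Dkk2*.

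Secreted acute-phase and antimicrobial proteins held the highest gene of the comparison. *Lcn2*, lipocalin 2, an iron-chelating protein of inflamed epithelia and myeloid cells, had log2 values of 3.50, 7.18, 3.61 and 3.67. It was thus read above log2 6 on the *ErbB2* array with *Ets2* and on no other, at a difference of 3.67. *Wfdc18*, a small secreted protein of the whey acidic protein family, showed the same pattern at 5.27, 8.37, 5.94 and 5.61. *Saa3*, an acute-phase serum amyloid made by fibroblasts and macrophages, was at 8.49, 10.23, 8.06 and 8.0 and so 3.34-fold higher in *ErbB2* fibroblasts. *Reg1*, a secreted C-type lectin of regenerating tissue, was 3.12-fold higher at 6.01 and 7.66, and *Cp*, the copper-carrying ferroxidase ceruloplasmin, went from 5.86 to 7.50. *Rarres2*, the chemoattractant chemerin, was 2.99-fold higher on its brightest probe set, at 9.76, 11.34, 9.13 and 8.92, and another probe set differed by 1.79. Both carry a suffix of possible cross-hybridisation. The remaining probe set differed by -0.07, at 3.91 and 3.84, below log2 6 and so not shown to rise over background. Of 19 measured genes of the list, 5 were more than 2-fold higher and none was lower by that size, against 0.83% and 0.17% of all genes. Above 0 were 13, with a median of 0.25. On the higher of the compared arrays 9 of the 19 were at log2 6 or more, and with that minimum the median was 1.58. The rest of the list differed less: *Ptx3*, a pentraxin of fibroblasts, was at 11.42 and 11.45, and *Saa1* and *Hp* differed by 0.00 and -0.02. *Lcn2*, *Lyz1* and *Lyz2* are markers of other cell types, and *Saa3* is on the inflammatory fibroblast list. Without genes on any cell type marker list, fibroblast lists included, the median was 0.03.

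The promoters of the genes at both ends of the comparison are shown so that the sequence in front of the genes that differed most can be read beside their values. They were taken from RefSeq on build GRCm38.p6, 300 bases around the start site of transcription, most of them upstream, in lower case and in the direction of the gene. Shown are the first 3 genes in each direction, among those at log2 6 or more on the higher array, whose promoter the table gives and which could be printed. Of the highest genes these are:
*Lcn2*, chr2.0:32387690-32387989, minus strand: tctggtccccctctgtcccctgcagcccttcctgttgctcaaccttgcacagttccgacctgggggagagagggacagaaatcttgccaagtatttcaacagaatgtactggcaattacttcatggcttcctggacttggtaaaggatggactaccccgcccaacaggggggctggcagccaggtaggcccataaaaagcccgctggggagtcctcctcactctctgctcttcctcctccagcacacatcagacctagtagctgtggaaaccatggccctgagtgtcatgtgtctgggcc
*Krt18*, chr15.0:102027966-102028265, plus strand: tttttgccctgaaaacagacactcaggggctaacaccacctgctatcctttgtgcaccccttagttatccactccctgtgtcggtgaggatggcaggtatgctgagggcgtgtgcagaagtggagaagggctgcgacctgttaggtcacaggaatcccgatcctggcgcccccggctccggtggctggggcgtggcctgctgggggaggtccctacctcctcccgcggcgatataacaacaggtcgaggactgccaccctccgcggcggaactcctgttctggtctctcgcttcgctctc
*Wfdc18*, chr11.0:83708754-83709053, plus strand: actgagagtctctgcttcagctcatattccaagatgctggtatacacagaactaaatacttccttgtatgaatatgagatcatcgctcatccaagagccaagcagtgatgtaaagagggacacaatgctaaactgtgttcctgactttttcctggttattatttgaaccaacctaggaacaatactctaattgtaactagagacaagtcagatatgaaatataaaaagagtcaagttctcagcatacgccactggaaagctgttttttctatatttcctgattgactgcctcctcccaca
Of the lowest genes these are:
*Dkk2*, chr3.0:132085042-132085341, plus strand: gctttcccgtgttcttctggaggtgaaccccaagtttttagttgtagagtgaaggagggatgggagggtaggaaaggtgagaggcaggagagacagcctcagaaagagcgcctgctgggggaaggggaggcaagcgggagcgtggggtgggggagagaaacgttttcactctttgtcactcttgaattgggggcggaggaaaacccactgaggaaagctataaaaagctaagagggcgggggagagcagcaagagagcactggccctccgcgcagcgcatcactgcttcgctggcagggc
*Aldh1a2*, chr9.0:71215539-71215838, plus strand: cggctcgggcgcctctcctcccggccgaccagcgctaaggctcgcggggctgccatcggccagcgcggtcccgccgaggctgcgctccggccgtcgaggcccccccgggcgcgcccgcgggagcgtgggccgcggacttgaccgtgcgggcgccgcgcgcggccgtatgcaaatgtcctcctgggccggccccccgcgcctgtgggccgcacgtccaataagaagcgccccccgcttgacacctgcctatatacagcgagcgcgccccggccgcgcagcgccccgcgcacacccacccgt
*Il6*, chr5.0:30012864-30013163, plus strand: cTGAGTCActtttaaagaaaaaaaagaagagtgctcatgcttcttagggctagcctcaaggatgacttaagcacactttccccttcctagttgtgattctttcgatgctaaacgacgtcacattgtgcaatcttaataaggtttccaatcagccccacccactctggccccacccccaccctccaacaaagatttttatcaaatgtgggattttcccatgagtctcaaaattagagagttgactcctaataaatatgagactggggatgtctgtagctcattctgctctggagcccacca
Capitals mark a match to the AP-1 motif TGACTCA on either strand, which stood at base -249 of *Il6* and in 1709 of all 32851 promoters of the table, 5.2%. The ETS motifs CCGGAAGT and CAGGAAGT, searched on both strands, were in 2321 promoters, 7.07%, and in none of the 6 shown. A match describes these letters and is not a binding site.

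Collagenase 3 and stromelysin stood out among secreted proteases. *Mmp13*, a collagenase that cuts fibrillar collagen, was at 5.42, 8.44, 5.56 and 5.79, and *Mmp3*, stromelysin, at 9.87, 12.26, 8.02 and 8.29. Both were highest in *ErbB2* fibroblasts with *Ets2*, by 3.01 and 2.40 over normal, and *Mmp3* was 5.26-fold higher. *Adam8*, a membrane metalloproteinase of leukocytes, was 3.10-fold higher at 8.48 and 10.11, and *Mmp12*, the macrophage elastase, 2.22-fold higher at 10.46 and 11.61. These 4 are the genes past 2-fold among 34 measured secreted proteases, none of which was lower by that size, and the median of the list was 0.29. Over all genes, 0.83% were higher and 0.17% lower by that size. The gelatinase *Mmp2* and the serine protease *Fap*, a protein of activated fibroblasts, were higher by 0.75 and 0.79, while *Mmp14*, which activates *Mmp2*, was at 11.61 and 11.48. *Mmp9*, the other gelatinase, went from 5.58 to 6.15, at the edge of what these arrays read. Without genes that any cell type marker list also holds, fibroblast lists included, the median of the protease list was 0.07. *Mmp12* is among the genes left out.

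Among protease inhibitors, *Serpinb2* and *Wfdc2* were past 2-fold. *Serpinb2*, plasminogen activator inhibitor 2, was at 3.60, 6.11, 5.84 and 3.43 and *Wfdc2*, a secreted inhibitor-like protein of epithelia, at 5.85, 7.61, 8.42 and 5.64. *Wfdc2* was highest in normal *Ets2* null fibroblasts. *Serpinb2* was read above log2 6 in the *ErbB2* array with *Ets2* alone, but its 5.84 in normal *Ets2* null fibroblasts was close below that level. Both genes thus had the same arrays on the higher side. Of 19 inhibitors and plasminogen receptors, 16 lay above 0, 2 were more than 2-fold higher and none lower, with a median of 0.23, and of 0.19 without genes of the marker lists.

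**Figure D2:**
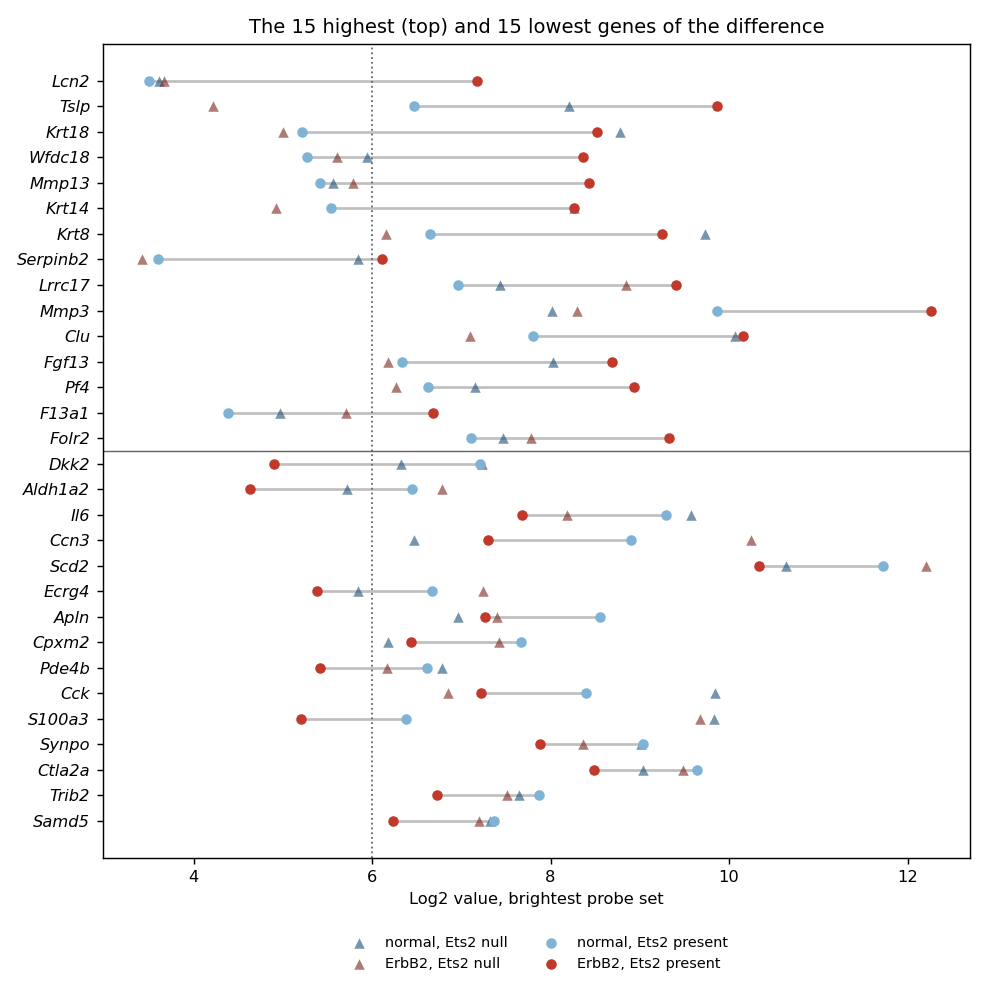
Log2 value on the brightest probe set (x axis) in each of the 4 arrays for the 15 highest (upper block) and 15 lowest (lower block) genes of the difference with a higher value of at least 6, marked by the dotted line. Circles are the compared arrays, joined by a grey line, and triangles are the *Ets2* null arrays. *Lcn2*, *Wfdc18* and *Mmp13* are high in the red circle alone, while *Krt18*, *Krt8* and *Clu* are as high or nearly as high in the normal *Ets2* null array.

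Keratins and junction proteins of epithelial cells were higher in *ErbB2* fibroblasts, and most of them were about as high or higher in normal fibroblasts lacking *Ets2*. *Krt18* and *Krt8*, the paired keratins of simple epithelium, had log2 values of 5.21, 8.52, 8.78 and 5.01 and of 6.65, 9.25, 9.73 and 6.15, and *Krt8* was 6.08-fold higher in the *ErbB2* array. *Krt14*, the basal keratin, was at 5.54, 8.26, 8.27 and 4.93 on its brightest probe set. Another of its 3 probe sets, below log2 6 on both arrays, differed by 0.11. These keratins thus formed a high pair of arrays, *ErbB2* with *Ets2* and normal without, and a low pair. *Krt7*, *Cd24a* and *Cldn4*, a luminal keratin, a surface glycoprotein and a tight junction protein, followed the same order with differences of 1.55, 1.85 and 1.81, as did the desmosome protein *Dsp* at 1.69. *Cdh1*, the epithelial cadherin, went from 3.17 to 5.26, below log2 6 on both arrays. Of 32 luminal markers, 9 were more than 2-fold higher and none lower, and of 22 basal markers 4 and none, against 0.83% and 0.17% of all genes. The list medians were 0.13 and 0.36. On the higher of the compared arrays, 14 of the luminal and 12 of the basal markers were at log2 6 or more. With that minimum the luminal median was 1.12. *Krt19* was at 8.41 and 7.96. *Epcam* was at 8.29 and 8.32 on its brightest probe set but had a difference of 3.10 on its other one. *Trp63*, the basal transcription factor, was at 3.99 and 3.92. The milk protein genes *Csn2* and *Wap* were at 4.02 and 3.93 and at 5.29 and 4.94. *Trp63* and the milk protein genes were thus not shown to rise over background. The mean level of the luminal list was 5.30, 5.98, 5.90 and 5.23 and that of the basal list 6.01, 6.58, 6.86 and 5.82. What part epithelial cells had in these values was not tested.

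*Tslp*, an epithelial cytokine that primes dendritic cells, and *Clu*, a secreted chaperone, had the order of the keratins. *Tslp* was at 6.47, 9.87, 8.20 and 4.22, a 10.6-fold difference between *ErbB2* and normal fibroblasts with *Ets2*, and *Clu* at 7.81, 10.16, 10.07 and 7.09. The same order held for the fatty acid binding protein *Fabp7* at 6.20, 8.20, 8.02 and 6.15 and the fibroblast growth factor homolog *Fgf13* at 6.34, 8.69, 8.02 and 6.18. In each of these the normal *Ets2* null array lay above the normal array with *Ets2*, and the *ErbB2* *Ets2* null array was the lowest of the 4.

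Macrophage genes were higher in *ErbB2* fibroblasts throughout the list. All 45 measured macrophage and myeloid markers lay above 0, with a median of 0.97, against 46.4% and -0.02 for all genes. More than 2-fold higher were 21 and none was lower by that size, against 0.83% and 0.17% of all genes. *Cd68*, a lysosomal glycoprotein of macrophages, was at 8.67, 10.56, 8.70 and 8.21, which is 3.70-fold, and *Pf4*, a chemokine of platelets and macrophages, at 6.62, 8.94, 7.16 and 6.27, which is 4.98-fold. *Ptprc*, the pan-leukocyte protein CD45, went from 5.56 to 6.91. Scavenger and Fc receptors and their signaling partners followed: *Msr1*, *Tyrobp*, *Fcer1g* and *Mrc1* were higher by 1.40, 1.26, 1.11 and 1.08. Other defining markers differed less. *Csf1r*, the macrophage growth factor receptor, was at 9.70 and 10.58, *Cd14*, the lipopolysaccharide co-receptor, at 8.15 and 8.66, *Adgre1*, a surface antigen of macrophages, at 6.89 and 7.23, and *Aif1* and *Cx3cr1* were below 6 on both arrays and higher by 0.03 and 0.06. In 43 of the 45 genes the *ErbB2* array with *Ets2* was the highest of the 4, and the mean level of the list was 7.71, 8.58, 7.49 and 7.23. Neutrophil and lymphocyte markers stayed low, with 2 of 11 and 5 of 20 at log2 6 or more in the *ErbB2* array and medians of 0.11 and -0.14. Among 14 mast cell and basophil markers, *Tpsab1*, a tryptase, was 4.59-fold higher at 6.14 and 8.34, while *Cma1* and *Cpa3*, a chymase and a carboxypeptidase, were below 6 on both arrays. The part of macrophages in the differences of other genes was not tested.

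Of the next genes, which are on no marker list, those after *F13a1* were picked with their values in view. The folate receptor *Folr2* and the clotting factor subunit *F13a1*, both made by tissue macrophages, were at 7.11, 9.32, 7.47 and 7.78 and at 4.39, 6.69, 4.96 and 5.71. *Alox5ap*, which feeds the leukotriene pathway, was at 7.81 and 9.11, *Slc11a1*, a metal transporter of phagosomes, at 7.13 and 8.36, and *Apoe*, the apolipoprotein, at 8.91 and 9.91. Each of the 5 was more than 2-fold higher. *Fermt3*, *Cd84*, *Blnk* and *Nckap1l*, adhesion and signaling proteins of blood cells, differed by 1.46, 1.42, 1.52 and 1.07.

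Lysosomal and complement genes were higher as well, and both lists share genes with the macrophage list. All 21 lysosomal genes lay above 0, with a median of 0.59, and 4 were more than 2-fold higher, against 0.83% of all genes. *Ctsh* and *Ctss*, cathepsins H and S, were 2.70-fold and 2.42-fold higher, and *Ctsk*, the collagen-degrading cathepsin K that fibroblasts also make, was at 10.47, 11.60, 10.24 and 11.07. The abundant cathepsins *Ctsb*, *Ctsd* and *Ctsl* were higher by 0.64, 0.62 and 0.59, while the lysosomal membrane protein *Lamp1* was at 12.77 and 12.78. Leaving out genes of the marker lists left the median of the lysosomal list at 0.56. Of 12 complement genes, 10 lay above 0 and 4 were more than 2-fold higher, namely the anaphylatoxin receptors *C3ar1* and *C5ar1*, by 1.78 and 1.36, and the C1q chains *C1qa* and *C1qc*, by 1.11 and 1.0. *C1s1*, the C1 protease that fibroblasts also secrete, was at 8.77 and 9.66. The median of the complement list was 0.69, and 0.33 without genes of the marker lists.

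Chemokines went both ways. *Ccl8*, a chemoattractant of monocytes, had log2 values of 9.35, 11.50, 8.43 and 10.49 and was 4.42-fold higher in *ErbB2* fibroblasts with *Ets2*. It was also higher in the *Ets2* null pair, by 2.06. *Pf4* and *Ccl9* were the other chemokines past 2-fold, *Ccl9* at 9.45 and 10.46. Against these stood many small negative differences, since 16 of 29 chemokines lay below 0 and the median was -0.05. *Ccl7*, *Cxcl5* and *Cxcl12*, chemoattractants of monocytes, neutrophils and lymphocytes, differed by -0.59, -0.61 and -0.42, *Ccl7* at 11.23 and 10.63, *Cxcl5* at 7.17 and 6.56, and *Cxcl12* at 10.91 and 10.49.

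The cytokine *Il6* was the secreted immune factor with the strongest negative difference. It was at 9.30, 7.67, 9.57 and 8.19, so that the *ErbB2* array was 3.08-fold lower with *Ets2*, and the difference without it was -1.38. *Il1rn*, the interleukin 1 receptor antagonist, was at 8.14 and 9.42 and *Tslp* was described above. These 3 are the cytokines past 2-fold among 23, whose median was -0.03. Genes that mark inflammatory fibroblasts went both ways: of 18, 3 were more than 2-fold higher, the secreted proteins *Lcn2*, *Saa3* and *Dpt*, and *Il6* was more than 2-fold lower. Their median was -0.32, with *Ptgs2*, the inducible cyclooxygenase, at 10.42 and 9.84 and *Has2*, a hyaluronan synthase, at 8.58 and 7.83, while their mean was 0.04.

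**Figure D3:**
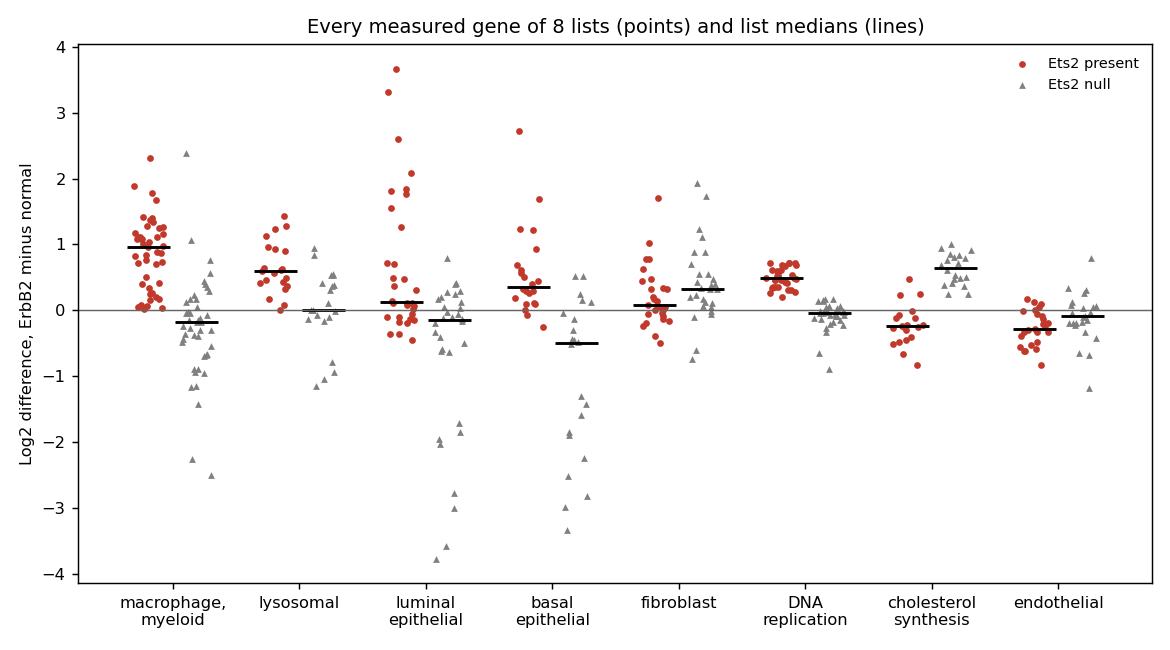
Log2 difference, *ErbB2* minus normal (y axis), of every measured gene of 8 lists (x axis), in the pair with *Ets2* (red circles) and the *Ets2* null pair (grey triangles), with list medians as black lines. All 45 macrophage and myeloid, all 21 lysosomal and all 33 DNA replication genes lie above 0 with *Ets2*, while the cholesterol genes lie mostly below 0 with *Ets2* and above 0 without.

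Type I collagen was level, as given above, and a few other matrix proteins were higher. *Lum*, lumican, a proteoglycan that spaces collagen fibrils, was at 7.77, 9.47, 6.71 and 8.45, which is 3.26-fold with *Ets2*. *Cthrc1*, a secreted protein of activated fibroblasts, was 3.92-fold higher at 9.20 and 11.17, with 9.47 and 9.46 in the *Ets2* null arrays, and *Prg4*, lubricin, 2.59-fold higher at 6.43 and 7.80. Thus *Lum* was higher with the oncogene in both pairs and *Cthrc1* in 1 of them. *Dpt*, dermatopontin, and *Mgp*, the calcification inhibitor matrix Gla protein, were at 8.07 and 9.10 and at 10.62 and 11.77. *Dcn*, decorin, was higher by 0.78 at 11.68 and 12.46. Of 31 genes of collagens and their processing, *Col5a3* and *Col7a1* were more than 2-fold higher, at 8.82 and 9.99 and at 7.44 and 8.49, and none was lower by that size. The type VI chains *Col6a1*, *Col6a2* and *Col6a3* were higher by 0.48, 0.63 and 0.65, *Col3a1* was at 13.62 and 13.93, and the basement membrane chains *Col4a1* and *Col4a2* were at 12.66 and 12.38 and at 12.08 and 11.69. The list medians were 0.09 for collagens and 0.06 for 36 other matrix proteins, of which 2 were more than 2-fold higher.

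Matricellular proteins, which sit in the matrix and signal to cells, had members at both ends. *Spon1* and *Tgfbi* were 2.44-fold and 2.18-fold higher on their brightest probe sets, at 9.05 and 10.34 and at 7.78 and 8.90. Another probe set of *Spon1* that was read on both arrays differed by 0.47. *Ccn3*, a growth regulator, was at 8.90, 7.30, 6.47 and 10.24, and *Smoc1* at 7.69 and 6.57. The median over 19 genes was 0.19. Myofibroblast and smooth muscle genes were level at a median of 0.12 over 25, with *Acta2*, smooth muscle actin, at 14.24 on both arrays on its brightest probe set but with a difference of 1.19 on another of its 3, *Tagln* at 14.11 and 14.20 and *Cnn1*, calponin, at 11.44 and 10.76. *Rgs5*, a pericyte gene, was 2.38-fold higher at 6.6 and 7.84. *Lrrc15*, a surface protein of activated fibroblasts, was 2.64-fold higher at 9.02 and 10.42. *Lrrc17*, a secreted leucine-rich repeat protein, was at 6.96, 9.40, 7.44 and 8.85 on its brightest probe set. Its other probe set, below log2 6 on both arrays, differed by -0.33.

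Growth factors differed one by one and not as families. *Fgf7*, keratinocyte growth factor, which stromal cells send to the epithelium, was 2.17-fold lower at 9.87, 8.76, 9.80 and 9.85, so the *ErbB2* array with *Ets2* stood below the other 3. *Fgf21*, a metabolic hormone of the family, was 3.33-fold higher at 6.66, 8.39, 6.66 and 7.27. *Hgf*, another factor for epithelial cells, was at 7.33 and 7.08, and *Igf1* at 9.95 and 9.13. The median of 17 FGF and HGF genes was -0.11, that of 14 IGF genes 0.00 with none past 2-fold, and that of 7 PDGF genes 0.19 with none past 2-fold.

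Among Wnt genes the secreted antagonists *Dkk2* and *Sfrp2* went opposite ways. *Dkk2* was at 7.21, 4.90, 6.33 and 7.23, the strongest negative difference of all genes at -2.31, and *Sfrp2* at 8.38, 9.65, 6.33 and 8.49. *Wnt4*, a ligand that also acts in the mammary epithelium, was 2.37-fold higher at 8.52 and 9.76, and *Wnt5a* was at 7.95 and 7.16. The median over 30 genes was 0.03. In the TGF-beta family, *Tgfb3* and the activin antagonist *Fst* were 2.08-fold higher each, at 10.90 and 11.96 and at 8.64 and 9.70, and of the BMP list the target *Id2* was 2.99-fold higher at 8.55 and 10.13. The medians of these lists were 0.01 over 23 genes and 0.14 over 21, with none lower by more than 2-fold.

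Of the retinoid genes, *Aldh1a2*, which makes retinoic acid, was at 6.45, 4.63, 5.72 and 6.79, and *Rbp4*, which carries retinol, was 2.78-fold higher at 6.73 and 8.20. With *Rarres2* these are the genes past 2-fold among 17, with a median of 0.10. Prostaglandin genes had *Hpgds* and *Ptger3* past 2-fold on the higher side, both starting below log2 6, at 5.24 and 6.51 and at 3.15 and 4.41, and a median of -0.05 over 17.

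No angiogenic ligand or receptor among 37 differed by more than 2-fold, and 24 of them lay below 0, with a median of -0.14. *Vegfc*, a growth factor of lymphatic and blood vessels, was the highest at 8.01, 8.89, 8.83 and 6.98. *Vegfa*, the main vascular growth factor, was at 9.56 and 9.19, *Vegfb* at 7.52 and 6.86 and *Vegfd* at 8.73 and 8.06. Of these 4 ligands *Vegfc* was higher and the other 3 were lower. *Apln*, apelin, a peptide of sprouting vessels that the list does not hold, was 2.43-fold lower at 8.55 and 7.27.

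Endothelial markers were lower as a group in *ErbB2* fibroblasts. Of 25, 21 lay below 0 and none passed 2-fold, with a median of -0.28. *Emcn* and *Plvap*, surface proteins of capillaries, were at 7.84, 7.01, 6.67 and 5.99 and at 8.40, 7.78, 6.86 and 6.67. In both, the normal array with *Ets2* was the highest of the 4. *Pecam1* and *Cdh5*, the endothelial adhesion proteins, were at 6.54 and 5.98 and at 6.69 and 6.17, and the other probe set of *Cdh5* differed by -0.06. The markers *Kdr* and *Flt1* were not lower in this way, with differences of -0.002 and 0.17. At log2 6 or more were 17 of the 25 in normal and 13 in *ErbB2* fibroblasts, and 9 in each *Ets2* null array.

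Genes of DNA replication were higher in every member, each by less than 2-fold. All 33 measured genes lay above 0, from 0.20 for *Ccne1* to 0.72 for *Cdc45*, with a median of 0.49, against -0.02 for all genes. *Mcm3* and *Mcm6*, subunits of the replicative helicase, were at 8.82, 9.51, 8.68 and 8.61 and at 9.57, 10.25, 9.54 and 9.47. *Pcna*, the sliding clamp, was at 11.55, 12.13, 11.52 and 11.56. The *ErbB2* array with *Ets2* was the highest of the 4 in 32 of the 33 genes. *Rrm2*, the ribonucleotide reductase subunit, was at 10.80, 11.41, 11.46 and 10.57 and is the exception. Mitosis genes were higher by less, with 25 of 33 above 0 and a median of 0.20, led by *Aurkb*, a mitotic kinase, at 7.31 and 7.98. *Cdkn1a*, the p21 inhibitor of the cell cycle, was at 10.80 and 10.40. No gene of either list, nor of 15 CDK inhibitors and D cyclins, passed 2-fold.

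Lipid synthesis genes were lower with the oncogene when *Ets2* was present. Of 20 genes of cholesterol synthesis and uptake, 17 lay below 0 and none passed 2-fold, with a median of -0.24. *Lss* and *Mvd*, enzymes of the sterol pathway, were at 8.95, 8.12, 8.75 and 9.54 and at 7.77, 7.10, 7.49 and 8.50. In the *Ets2* null pair all 20 lay above 0, with a median of 0.65. Of 17 fatty acid genes, 13 lay below 0 and 2 of these past 2-fold. Their median was -0.38, and 0.52 in the *Ets2* null pair. *Scd2*, a desaturase, was 2.62-fold lower at 11.72, 10.34, 10.64 and 12.21, and *Elovl6*, an elongase, 2.10-fold lower at 7.73, 6.65, 7.84 and 8.16. The sterol factor *Srebf1* was at 8.93, 8.4, 8.46 and 8.98 and *Fasn*, the fatty acid synthase, at 9.77, 9.15, 9.77 and 9.97. The *ErbB2* array with *Ets2* was the lowest of the 4 for 15 of the 20 and 11 of the 17 genes. *Cd36*, a fatty acid receptor that macrophages also carry, was 4.48-fold higher at 8.45, 10.61, 8.64 and 6.88, and *Pparg*, the adipocyte factor, 2.76-fold at 7.74 and 9.20. *Adipoq* and *Lep*, hormones of mature fat cells, were below 6 on all 4 arrays, and the 21 adipocyte markers had a median of 0.05.

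Hypoxia, glycolysis and interferon genes were lower in small steps. Of 31 hypoxia and glycolysis genes, 24 lay below 0 and none passed 2-fold, with a median of -0.19. *Ndrg1* and *Pfkl*, a stress-response gene and a glycolytic enzyme, were at 8.44 and 7.61 and at 10.30 and 9.48, and *Slc2a1*, the glucose transporter, was at 10.62 and 10.13. *Hif1a*, the hypoxia factor, was at 11.28 and 11.15. Of 34 interferon-stimulated genes, 26 lay below 0, with a median of -0.18, and *Usp18* and *Ifit1* passed 2-fold but were below log2 6 on every array. *Ifi27l2a* and *Bst2*, which were read, were at 6.99 and 6.15 and at 8.03 and 7.25.

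The lower end of the comparison held few genes and little in common among them. *Olr1*, a receptor for oxidized lipoprotein, was at 5.40, 3.24, 5.58 and 6.03, so its difference of -2.15 lies below the level shown to be above background. *Pde4b*, which breaks down cyclic AMP, went from 6.62 to 5.41, and *S100a3*, a calcium-binding protein, from 6.38 to 5.21. *Ctla2a*, an inhibitor of cathepsin L, was 2.21-fold lower at 9.64 and 8.49 and *Plac8*, a small cysteine-rich protein, 2.18-fold lower at 11.27 and 10.15. The weakest probe set of *Pde4b* differed by 0.02, of *Ecrg4* by -0.08, of *Masp1* by -0.19 and of *Elovl6* by 0.00. Each of these probe sets was below log2 6 on both arrays. In 24 of the 31 genes the *ErbB2* array with *Ets2* was the lowest of the 4. Of 14 read by several probe sets, 12 had all their probe sets on the same side of 0.

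**Figure D4:**
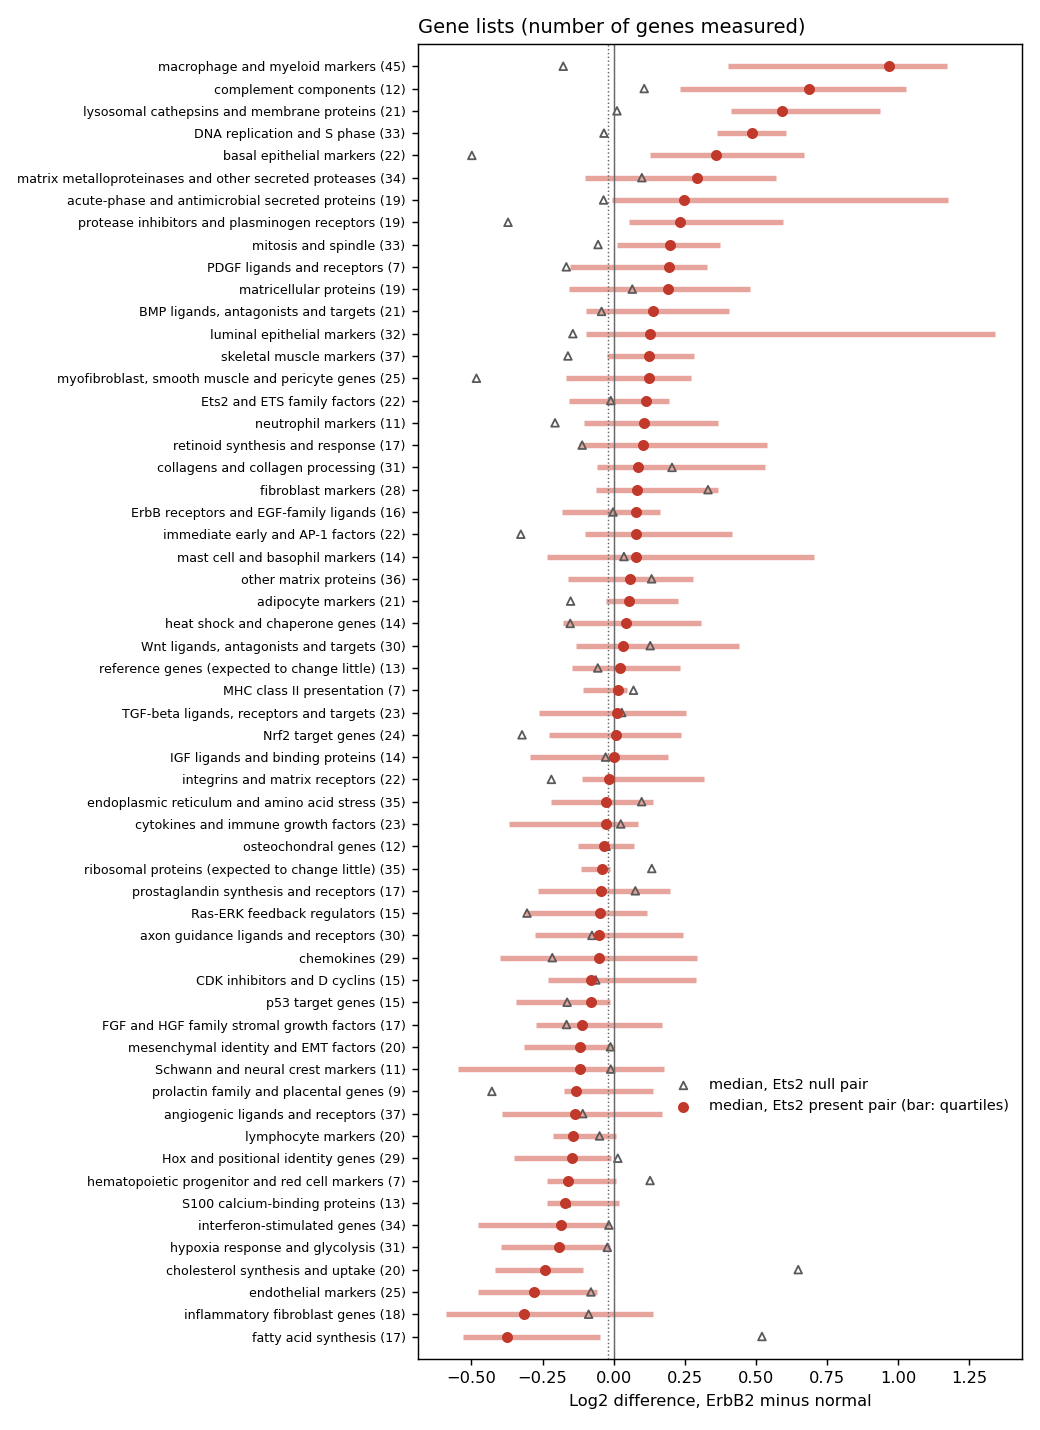
Median log2 difference, *ErbB2* minus normal, of each gene list with *Ets2* present (red circles, with the quartiles as bars) and in the *Ets2* null pair (open triangles), sorted by the former, with the number of measured genes in brackets and a dotted line at the median of all genes. Macrophage and myeloid markers lead at 0.97, and fatty acid synthesis is last at -0.38.

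The *Ets2* null pair shares no array with the compared pair, so each gene's own values can be set side by side. There the balance was turned: 99 genes, 0.544%, were more than 2-fold higher with the oncogene and 275, 1.51%, more than 2-fold lower. Of the 151 genes higher with *Ets2*, 37 lay above 0 without it, and the median of the 151 there was -0.28. Of the 31 lower genes 13 lay below 0 there, with a median of 0.06. Among all 18194 genes, 9971 lay above 0 and 8213 below 0 in the *Ets2* null pair, so the 13 of 31 were near the share of all genes. Past 2-fold and higher in both pairs were 11 genes, 7.29% of the 151 and 11.1% of the 99, and past 2-fold and lower in both were 3, 9.68% of the 31 and 1.09% of the 275. In opposite directions were 35 genes, higher with *Ets2* and lower without, 23.2% of the 151 and 12.7% of the 275, and 5 genes that ran the other way, 16.1% of the 31 and 5.05% of the 99. Across all genes, which do not replicate each other, the correlation between the differences of the pairs was -0.209 by Pearson and -0.138 by Spearman.

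The genes higher with the oncogene in both pairs included matrix proteins and C1q chains of complement. Besides *Ccl8*, *Lum*, *Sfrp2* and *Lrrc17* they were *Abi3bp*, *Cilp*, *Lrrc15*, *C1qa*, *C1qc*, *Pamr1* and the carboxypeptidase-like *Cpxm1*. *Sfrp2* was higher by 1.27 with *Ets2* and 2.17 without, *C1qa* by 1.11 and 2.39, and *Cilp*, a matrix protein of cartilage and fibrous tissue, by 1.06 and 1.33. Lower in both were *Il6*, the peptide hormone *Cck* at 8.39, 7.22, 9.84 and 6.85, and the complement-activating protease *Masp1* at 9.18, 8.08, 10.44 and 9.38. The 35 genes that turned over included *Tslp*, *Clu*, the keratins and *Fst*. *Tslp* differed by 3.40 with *Ets2* and by -3.98 without. *Ccn3*, *Scd2*, *Aldh1a2*, *Ecrg4* and *Cpxm2* turned the other way, *Ccn3* with -1.60 and 3.77. Whether the oncogene's difference depends on *Ets2* was not tested, since it would need replicate arrays.

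**Figure D5:**
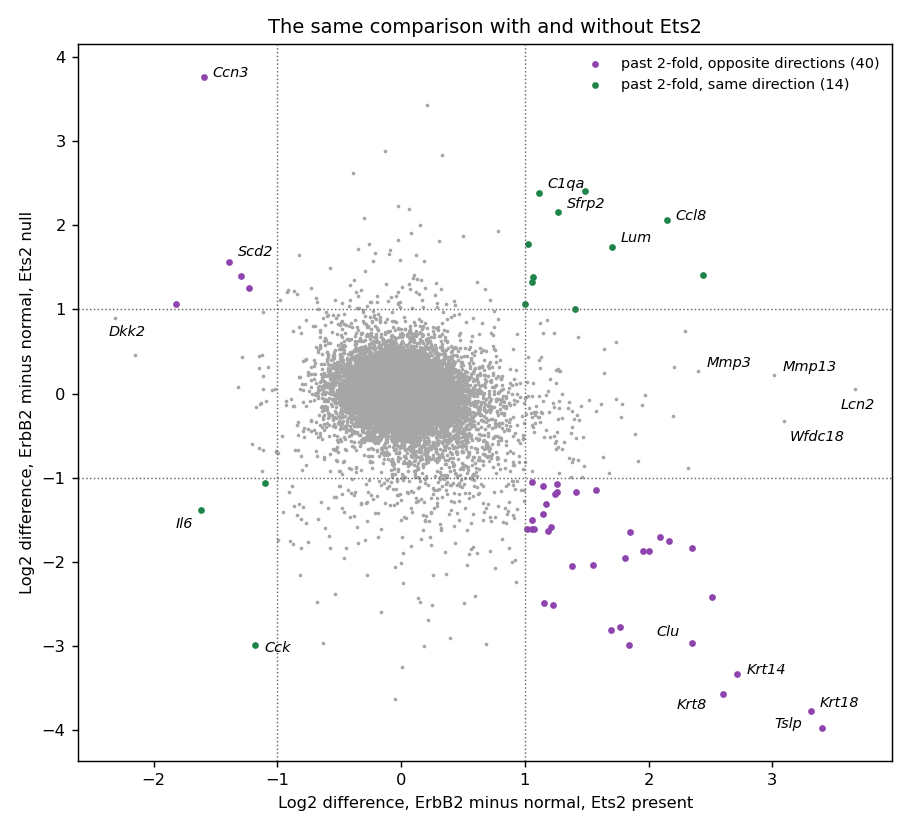
Log2 difference, *ErbB2* minus normal, with *Ets2* present (x axis) and in *Ets2* null fibroblasts (y axis), 1 point per gene, with dotted lines at 2-fold. The 40 purple genes are past 2-fold in opposite directions, with *Tslp* and the keratins at the lower right, and the 14 green genes are past it in the same direction.

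In the arrays themselves, the *ErbB2* fibroblasts with *Ets2* were at the top for 138 of the 151 higher genes, and the *ErbB2* fibroblasts without *Ets2* were at the bottom for 91. The normal array with *Ets2*, against which the genes were called, was the lowest of the 4 for 38. Being high among 4 arrays follows in part from the choice of these genes. Among the highest genes, *Lcn2*, *Wfdc18*, *Mmp13* and *Cthrc1* had the other 3 arrays within about 1 log2 unit of each other, while *Tslp*, *Krt18*, *Krt8* and *Clu* spread over more than 2.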

How the data were processed

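RNA of second-passage mammary fibroblasts was hybridised to 4 Affymetrix mouse arrays, 1 for each genotype. The deposited log2 values were made by the authors with RMA, per the submitters' processing notes; the study's methods name RMA beside another method without saying which arrays each was used for. No source used here names the program that ran it or how probes were assigned to genes. RMA gives the arrays nearly the same distribution, so a change common to nearly all genes would be lost, and the number of arrays limits the precision. Probe sets were named through the platform's annotation, with symbols updated from RefSeq. Of 45101 probe sets, 34958 had 1 symbol, 932 had several and 9211 are unnamed here.

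Each gene was given the value of its brightest probe set, by the mean over the 4 arrays. The log2 difference, *ErbB2* minus normal, was called past 4-fold, the size the study used for these arrays, or past 2-fold. No test was run. Counts and medians were taken over 59 gene lists. The members and lists were chosen with earlier results of these data known. Genes were named by rule: the 15 highest and 15 lowest with a higher value of at least log2 6, the members of each list past 2-fold or else those that differed most, the most abundant members, the first markers of each cell type, and the genes most alike or unlike between the pairs. Other named genes were chosen after their values were seen. Counts were repeated without markers of other cell types, a choice made after seeing the data.

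The alternatives were 8-fold in place of 4-fold, median centring, quantile normalization, a loess on the mean level with a span of 0.4, a minimum of log2 6, probe sets without the suffixes of cross-hybridisation, the mean over probe sets or the probe set that differed most, list means in place of medians, and lists without genes on any cell type marker list. That last setting also left out genes on the fibroblast lists, unlike the counts without markers of other cell types. Python 3.11.15, pandas 2.3.3, numpy 2.4.6, statsmodels 0.14.6 and matplotlib 3.10.9 were used. Promoters were read from a RefSeq table on GRCm38.p6.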

Additional observations from a re-analysis of the deposited data

Results flagged for a closer look

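Several genes and lists differed in opposite directions with the oncogene in fibroblasts with and without *Ets2*. With *Ets2* the log2 difference, *ErbB2* minus normal, was 3.40 for *Tslp*, 3.31 for *Krt18*, 2.72 for *Krt14*, 2.60 for *Krt8*, 2.51 for *Serpinb2* and 2.35 for *Clu*. Without *Ets2* the same genes had differences of -3.98, -3.77, -3.34, -3.58, -2.42 and -2.97. In each of them the higher arrays were *ErbB2* fibroblasts with *Ets2* and normal fibroblasts without it. Of the gene lists, protease inhibitors had medians of 0.23 with *Ets2* and -0.37 without, and basal epithelial markers of 0.36 and -0.50. Cholesterol synthesis ran the other way with -0.24 and 0.65, as did fatty acid synthesis with -0.38 and 0.52. Over all genes, 40 were past 2-fold in opposite directions. None of these differences between the pairs was tested, since each genotype had 1 array.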

How the results depend on the processing

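No paired analysis was possible because each genotype had 1 array, and for the same reason no replicate could be left out. The 20 genes more than 4-fold higher were 5 at 8-fold and 12 without marker genes of other cell types, a choice made after the data were seen. The 2 genes more than 4-fold lower were 0 at 8-fold and 1 with the higher array at log2 6 or more. The counts past 2-fold stayed within 1.5 times under the alternatives tried. The protease list was at 0.067 in place of 0.29 without genes on any cell type marker list, fibroblast lists included. The cholesterol list was at -0.35 with the probe set that differed most. With the mean over probe sets, the lysosomal list was at 0.39 and the macrophage list at 0.81. The luminal list was at 1.12 with a minimum of log2 6, 0.32 with the probe set that differed most and 0.67 as a mean, and the basal list at 0.56 with that probe set and 0.56 as a mean. The direction turned for the inflammatory fibroblast list, at 0.036 as a mean. *Rarres2* was at -0.066 without probe sets that may cross-hybridise. Its remaining probe set was below log2 6 on both arrays, so that value shows no change of direction. The causes were not tested. Of 516 alternative values of the lists, 467 lay within 0.1 of the first. Of 664 alternative values of 111 named genes, 28, in 23 genes, came within 2-fold, 17 of them with the mean over probe sets.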

Other observations

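The gene lists not described above differed little. The median was 0.08 over 16 ErbB receptors and EGF-family ligands, -0.05 over 15 feedback regulators of Ras and ERK, 0.11 over 22 ETS factors and -0.02 over 22 integrins and matrix receptors, and none of these genes passed 2-fold. Among 22 immediate early and AP-1 factors the stress factor *Atf3* was the gene past 2-fold, at log2 values of 7.05 and 8.25, and the median was 0.08. Stress pathways were level, at -0.03 over 35 genes of endoplasmic reticulum and amino acid stress, 0.01 over 24 Nrf2 targets, -0.08 over 15 p53 targets and 0.04 over 14 heat shock and chaperone genes. The presentation genes of MHC class II had a median of 0.02 over 7.

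Positional and mesenchymal identity genes were slightly lower. Of 29 Hox and positional genes, 22 lay below 0 with a median of -0.15, and of 20 mesenchymal identity and EMT factors 15 lay below 0 with a median of -0.12. *Meox2*, a homeobox factor of mesoderm, was the gene of these past 2-fold, with a difference of -1.02. Axon guidance genes had a median of -0.05 over 30. *Plxnc1*, a semaphorin receptor, was higher by 1.43 on its brightest probe set, and the ephrin receptor *Epha3* was at -1.11. Another probe set of *Plxnc1*, below log2 6 on both arrays, was at -0.03. Of 37 skeletal muscle markers *Myog*, myogenin, passed 2-fold, at 6.01 and 7.31, and the median was 0.12. The medians were -0.12 over 11 Schwann cell and neural crest markers, -0.16 over 7 markers of blood progenitors and red cells, -0.03 over 12 osteochondral genes, -0.13 over 9 prolactin family and placental genes and -0.17 over 13 S100 genes. Ribosomal protein genes had -0.04 over 35 and reference genes 0.02 over 13. The 5 sex-linked genes had a median of 0.06, which by itself checks no sample. Of these, *Xist* was at 11.83 and 12.29, and the Y-linked *Eif2s3y* and *Kdm5d* were below log2 6 on both arrays. Of the 10143 probe sets with no single symbol, 17 were more than 2-fold higher and 5 lower.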
